A study of Mus musculus with 2 samples.

Results

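The CSF1 and RANKL axis was followed here through 6 genes in single cells of injured mouse tendon. They are the CSF1 receptor ligands Csf1 and Il34, their shared receptor Csf1r, the cytokine RANKL (Tnfsf11), its receptor RANK (Tnfrsf11a) and its decoy receptor osteoprotegerin (Tnfrsf11b). The genes were chosen by symbol, and all 6 were found once among the 32285 features of the count matrices. CSF1 and interleukin 34 act through the receptor tyrosine kinase encoded by Csf1r, which macrophages need for survival and proliferation. RANKL binds RANK on macrophage precursors and, together with CSF1, drives their fusion into osteoclasts, the cells that resorb bone. Osteoprotegerin is secreted, binds RANKL and keeps it from RANK, so the amount of RANKL set against osteoprotegerin is a usual measure of the axis in skeletal tissue.

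The cells came from the dissected injury site of mice aged 12 weeks, 14 days after tendon injury, in 1 library of TrkA F592A mice and 1 library of TrkA WT mice. Each library was a pool of 3 mice. TrkA is the receptor tyrosine kinase for nerve growth factor, the F592A substitution makes its kinase sensitive to bulky inhibitors, and the F592A sample is titled INMPP1, read here as such an inhibitor, while the WT sample is titled Control. The labels do not say if the WT mice were given it too, so the mutation, the inhibitor and the blocked kinase cannot be told apart, and a change of TrkA transcripts cannot serve as a check of a point mutation. Neither the dose of the inhibitor nor the breeding background of the mice is given in the labels.

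The F592A library held 10677 barcodes with 181472230 UMIs (barcoded counts that stand for 1 captured RNA molecule each), and the WT library 14868 barcodes with 222874195 UMIs. Of these barcodes, 764 were found in both libraries, with a median of 776 UMIs in F592A and 837 in WT. For 702 of them the UMI totals differed by a ratio of 0.8 to 1.25 between the libraries. The shared barcodes that passed the filters, 113 in F592A and 114 in WT, were left out of all results, and values with them kept stand in the closing section. This left 8349 F592A and 11146 WT cells, with a median of 17965 and 15979.5 UMIs. Marker scores placed 8002 and 10784 of them in a cell type, among them 4837 F592A and 6799 WT stromal cells, 1635 and 2510 macrophages, 611 and 553 endothelial cells and 561 and 541 mural cells, the contractile cells around vessels. Smaller groups were 120 F592A and 162 WT neutrophils, 84 and 68 T or NK cells, 76 and 75 lymphatic endothelial cells and 45 and 52 dendritic cells. The labels name tenocytes and the injured area, and the tenocyte gene Tnmd had a UMI in 3475 of the F592A and 4538 of the WT stromal cells. With 1 library per genotype no difference could be tested or checked against replicates. Levels are given as CPM, the UMIs of a gene per 1000000 UMIs of the same cells. All intervals are 95% intervals (exact Poisson for levels, exact binomial for shares, conditional binomial for ratios) and cover counting error only. One UMI stands for one captured transcript end, so CPM can be set side by side between genes without a correction for length.

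The positions of 5 of the genes on the GRCm38 assembly are chr3:107741048-107760469 (Csf1, minus strand), chr8:110741829-110805924 (Il34, minus strand), chr14:78277445-78308043 (Tnfsf11, minus strand), chr1:105780718-105847981 (Tnfrsf11a, plus strand) and chr15:54250619-54278484 (Tnfrsf11b, minus strand), per the GENCODE M21 annotation, and the position of Csf1r is not printed here. The promoters of the stromal ligands Csf1 and Tnfsf11 and of the receptor gene Tnfrsf11a are shown because the results below set their levels in stromal cells, neutrophils, macrophages and endothelial cells side by side. Each runs from 250 bases before to 50 bases after the gene start in a RefSeq promoter table on GRCm38.p6 that matched 3 of the 6 genes by symbol, and capitals mark matches, on either strand, to 4 motifs that were searched. These were the TATA box TATAAA, the GC box GGGCGG, the AP-1 motif TGANTCA and the NF-kB motif, read as GGG, a pair of any bases and TTTCC, and no marked bases overlap between motifs. The windows are chr3:107760420-107760719 (Csf1, minus strand), chr14:78307994-78308293 (Tnfsf11, minus strand) and chr1:105780473-105780772 (Tnfrsf11a, plus strand).
Csf1: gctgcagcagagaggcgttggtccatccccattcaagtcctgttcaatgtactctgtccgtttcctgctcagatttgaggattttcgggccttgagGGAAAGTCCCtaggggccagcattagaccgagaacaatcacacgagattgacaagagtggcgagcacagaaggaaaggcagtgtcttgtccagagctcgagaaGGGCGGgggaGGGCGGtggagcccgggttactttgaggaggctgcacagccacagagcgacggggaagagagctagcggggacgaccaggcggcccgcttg
Tnfsf11: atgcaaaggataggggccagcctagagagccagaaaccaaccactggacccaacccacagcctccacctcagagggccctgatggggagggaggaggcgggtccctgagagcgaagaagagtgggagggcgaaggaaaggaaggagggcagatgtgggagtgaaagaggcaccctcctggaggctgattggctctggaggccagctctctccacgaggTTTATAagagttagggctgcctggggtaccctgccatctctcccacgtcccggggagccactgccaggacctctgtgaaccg
Tnfrsf11a: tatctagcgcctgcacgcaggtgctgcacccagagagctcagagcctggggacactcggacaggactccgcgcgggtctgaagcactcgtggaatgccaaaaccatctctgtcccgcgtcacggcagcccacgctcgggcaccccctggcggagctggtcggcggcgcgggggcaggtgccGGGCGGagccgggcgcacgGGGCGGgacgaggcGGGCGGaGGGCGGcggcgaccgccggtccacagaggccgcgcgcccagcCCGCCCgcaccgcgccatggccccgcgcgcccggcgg
The Csf1 window held 2 GC boxes, at -51 and -41 from the gene start, and 1 NF-kB match at -154, on the strand opposite to the gene. The Tnfsf11 window held 1 TATA box match at -32, on the strand opposite to the gene, and no other match. The Tnfrsf11a window held 5 GC boxes between -69 and 14. Among 32851 promoter windows of this length, 35.7% held the GC box, 13.6% the TATA box, 7.81% the AP-1 motif and 1.63% the NF-kB motif. A match describes the letters of the window and is not a binding site.

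The ligand gene Csf1 was most abundant per UMI in neutrophils and most abundant in total in stromal cells. Neutrophils held 716 CPM in F592A (interval 642 to 796, 341 UMIs) and 891 CPM in WT (interval 802 to 987, 367 UMIs), and 59.2% of F592A and 58.0% of WT neutrophils had at least 1 Csf1 UMI. Endothelial cells followed with 68.9 CPM in F592A (interval 63.8 to 74.4) and 49.8 in WT (interval 44.8 to 55.2), stromal cells with 48.2 (interval 47.0 to 49.4) and 36.1 (interval 35.2 to 37.0), and mural cells with 44.6 (interval 39.9 to 49.8) and 46.4 (interval 41.1 to 52.2). In F592A the intervals of stromal and mural cells overlapped, and in WT those of endothelial and mural cells did, so these neighbours were not set apart by counting. Lymphatic endothelial cells held 8.16 CPM in F592A and 18.7 in WT on 8 and 18 UMIs, macrophages 5.55 and 7.61 CPM, dendritic cells 5 F592A UMIs and 0 WT UMIs, and T or NK cells only 2 and 1 UMIs.

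Neutrophils had been chosen as one of the backgrounds for Csf1, together with T or NK cells, but held its highest level. The T or NK share of cells with a UMI, 2.38% in F592A and 1.47% in WT at a median of 4852 and 3779.5 UMIs per cell, served as the background instead. The neutrophil share came from shallower cells, with a median of 3058.5 UMIs in F592A and 2500 in WT. Since neutrophils carried only 0.281% of the UMIs of the F592A cells and 0.201% of those of the WT cells, they held 4.45% and 5.06% of all Csf1 UMIs. Stromal cells held 77.6% of them in F592A and 78.7% in WT, close to the 72.8% and 77.3% that they held of all UMIs. Endothelial cells held 654 of the 7667 Csf1 UMIs in F592A and 363 of the 7260 in WT.

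**Figure D1:**
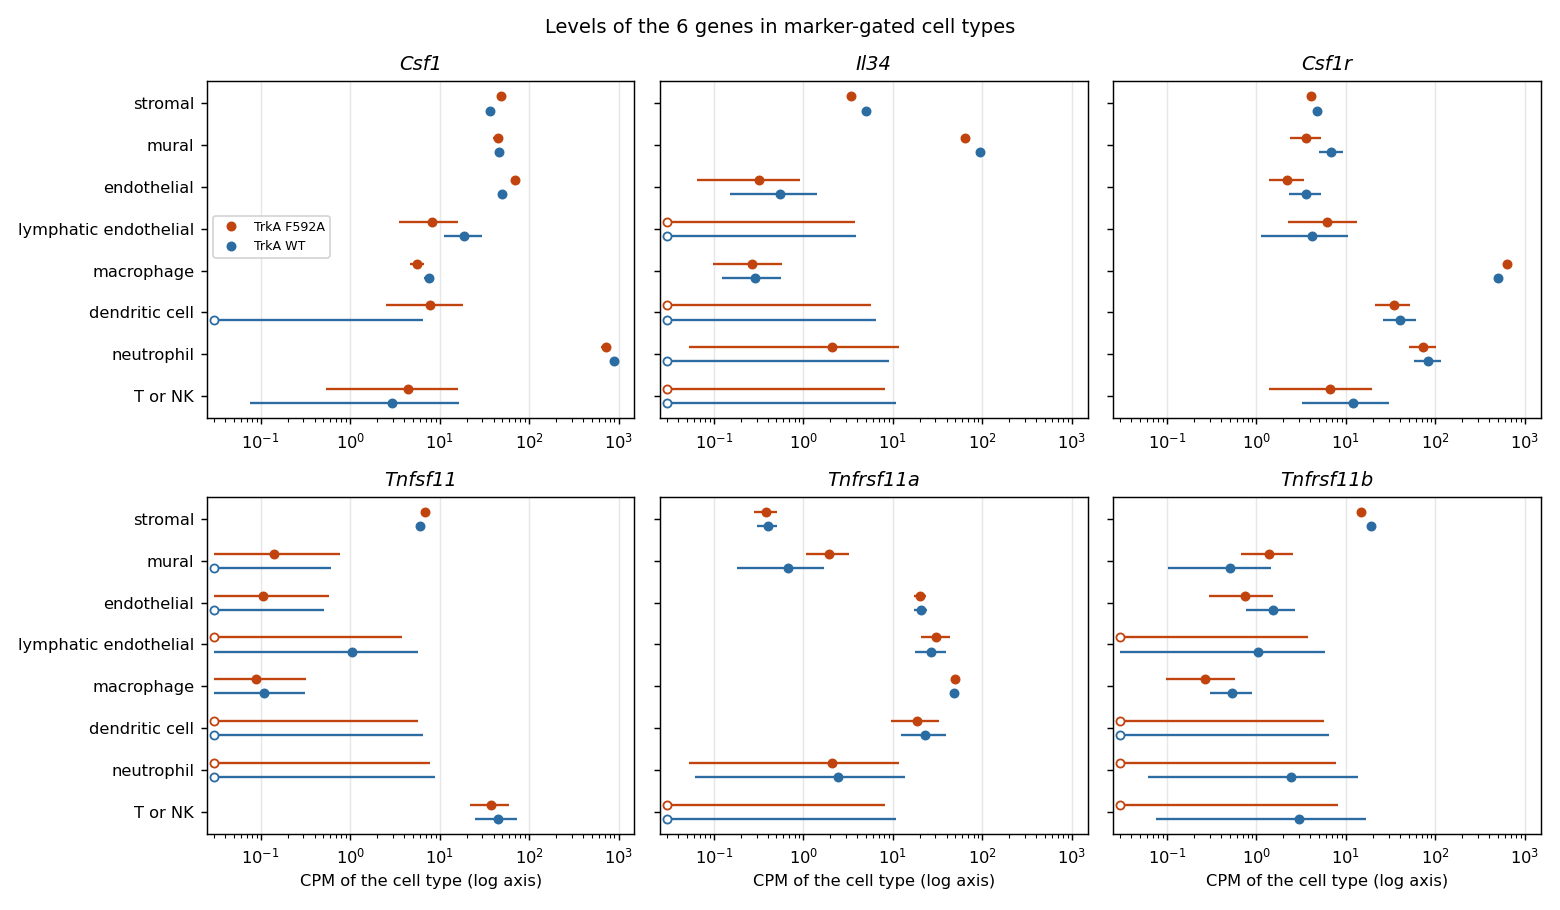
Level of each gene (CPM, log axis) in 8 marker-gated cell types, with TrkA F592A above TrkA WT in each row and bars for 95% counting intervals. Open circles mark 0 UMIs, drawn at the left end of the axis. Csf1 stands highest in neutrophils (716 CPM in F592A and 891 in WT), Il34 in mural cells, Csf1r in macrophages and Tnfrsf11b in stromal cells.

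Csf1 varied between stromal clusters over a wider range than between the libraries within any of them. Clusters were built without the 6 genes and are named by their leading genes. The cluster led by Slurp1 and Efemp1 held 108 CPM in F592A and 80.3 in WT, and the cluster led by Saa3, C3 and Cxcl14 held 104 and 71.3. At the other end, the cluster led by Wfdc18, Rbp4 and Matn4 held 17.4 CPM in F592A and 12.9 in WT, and the cluster led by Tnn, Inhba and Scx held 20.3 and 16.1. The clusters led by Hmcn2 and Eln (50.6 and 39.0 CPM) and by Chad and Gpha2 (41.3 and 30.3 CPM) lay between. Single markers also divided the stromal cells. Stromal cells with a UMI of Acan, the cartilage proteoglycan, held 28.4 CPM of Csf1 in F592A and 23.5 in WT, against 91.7 and 68.2 CPM in stromal cells without one. Cells with a UMI of the adventitial fibroblast marker Efemp1 held 103 CPM in F592A and 69.0 in WT, against 37.2 and 28.2 CPM without it. Acan and Efemp1 were picked for these sentences after the values of all 21 tenocyte, cartilage and adventitial markers had been seen.

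Il34, the second ligand of the receptor, was centred on mural cells. They held 64.0 CPM in F592A (interval 58.3 to 70.1, 460 UMIs) and 95.4 CPM in WT (interval 87.7 to 104, 569 UMIs), and 46.2% of F592A and 54.5% of WT mural cells had a UMI. Stromal cells held 3.39 CPM in F592A (interval 3.08 to 3.74) and 4.96 in WT (interval 4.62 to 5.32). Endothelial cells held 0.316 and 0.549 CPM. Macrophages, set as the background for this gene, had a UMI in 0.367% of F592A and 0.279% of WT cells. Mural cells held 49.8% of all Il34 UMIs in F592A and 40.7% in WT, although they held only 4.24% and 2.91% of all UMIs, and stromal cells held 45.3% and 56.2%. Mural cells were the one abundant type in which Il34 exceeded Csf1, with 0.698 Csf1 UMIs per Il34 UMI in F592A (interval 0.603 to 0.806) and 0.487 in WT (interval 0.420 to 0.563), while stromal cells had 14.2 and 7.27.

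Within mural cells Il34 was higher in cells with the pericyte channel gene Kcnj8. Cells with a UMI of this potassium channel subunit held 74.7 CPM of Il34 in F592A and 108 in WT, against 41.6 and 67.3 CPM in mural cells without one. Cells with a UMI of the smooth muscle myosin Myh11 held 60.6 CPM in F592A and 90.0 in WT, against 79.6 and 112 CPM without it. Among stromal clusters Il34 was highest in the one led by Chad and Gpha2, at 7.29 CPM in F592A (168 UMIs) and 10.1 in WT (237 UMIs). Kcnj8 and Myh11 were also picked after the values of all 7 mural markers had been seen.

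**Figure D2:**
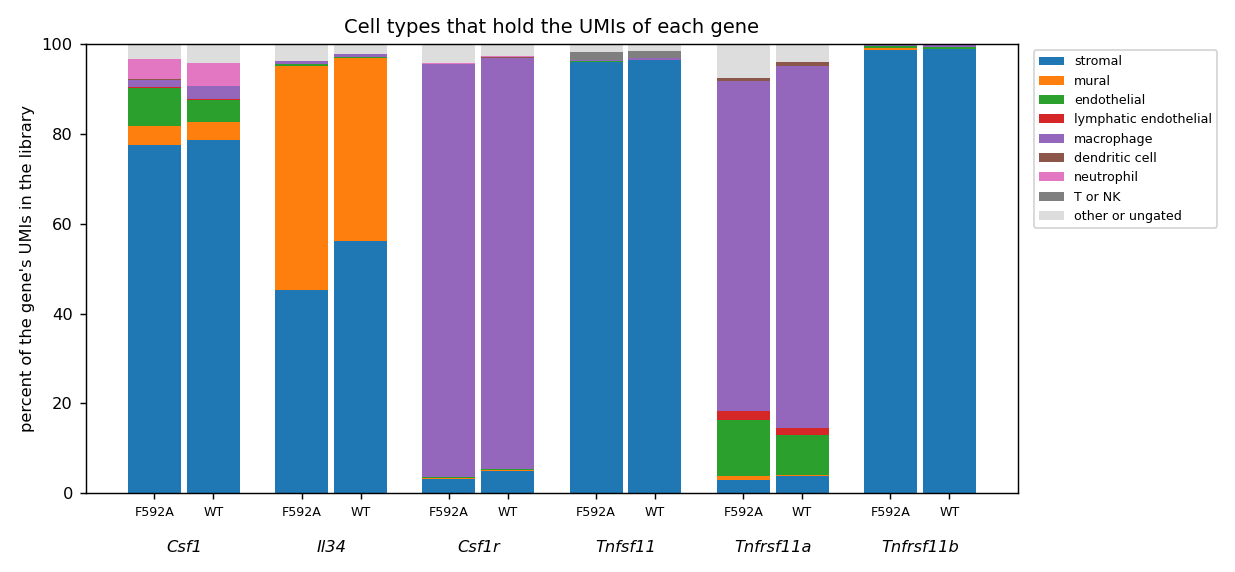
Share of each gene's UMIs (percent, stacked) held by each cell type, with TrkA F592A left of TrkA WT for each gene. Stromal cells hold most Csf1, Tnfsf11 and Tnfrsf11b UMIs, macrophages hold most Csf1r and Tnfrsf11a UMIs, and mural and stromal cells share Il34.

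The receptor gene Csf1r marked macrophages. They held 625 CPM in F592A (interval 615 to 635) and 498 CPM in WT (interval 490 to 506), and 1589 of the 1635 F592A and 2384 of the 2510 WT macrophages had a UMI. After thinning every cell to 2000 UMIs the shares with a UMI were 69.0% and 60.5%. Macrophages held 91.8% of Csf1r UMIs in F592A and 91.5% in WT. Macrophage clusters stood in one order in both libraries, though the lowest 2 overlapped in their F592A intervals. The cluster led by Cbr2, F13a1 and Pf4 held 712 CPM in F592A and 588 in WT, the cluster led by Retnla, Cd74 and H2-Aa held 556 and 425, the cluster led by Mmp12, Atp6v0d2 and Gpnmb held 378 and 341, and the small cluster led by Chil3 and Ly6c2, with 32 F592A and 35 WT cells, held 319 and 231.

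Csf1r outside macrophages was low but unequal. Stromal cells held 4.11 CPM in F592A and 4.74 in WT, which is 0.657% and 0.952% of the macrophage level. The 8 macrophage marker genes stood in stromal cells between 0.288% and 0.706% of their macrophage level in F592A and between 0.502% and 0.716% in WT. Their summed level in stromal cells was 93.9 CPM in F592A and 193 CPM in WT. Endothelial cells, the background for this gene, had a Csf1r UMI in 2.78% of F592A and 4.16% of WT cells at a median of 14596 and 11129 UMIs, against 6.95% and 7.49% of stromal cells at 24233 and 22002 UMIs. After thinning, the endothelial shares were 0.669% and 0.940% and the stromal shares 0.713% and 0.891%, on few positive cells. By level, endothelial cells held 2.21 CPM in F592A (interval 1.37 to 3.38) and 3.57 in WT (interval 2.33 to 5.23), which lay apart from the stromal interval in F592A (3.76 to 4.48) and overlapped it in WT (4.41 to 5.09). Neutrophils held 73.5 CPM in F592A (35 UMIs) and 82.5 CPM in WT (34 UMIs), or 11.8% and 16.6% of the macrophage level. Of the macrophage markers, Adgre1 stood there at 10.9% and 14.0%, Cd68 at 13.0% and 24.2% and Lyz2 at 37.0% and 8.77%. The other markers were lower in both libraries. C1qa stood at 0.593% and 1.88%, C1qb at 0.883% and 3.99% and C1qc at 1.67% and 2.28%. Fcgr1 stood at 2.19% and 5.75% and Mrc1 at 1.52% and 2.48%. Dendritic cells held 34.1 and 40.5 CPM on 22 and 23 UMIs.

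The RANKL gene Tnfsf11 was a stromal and T cell transcript. T or NK cells had the highest level, 37.5 CPM in F592A (interval 21.8 to 60.0) and 44.5 CPM in WT (interval 24.9 to 73.5), but on only 17 and 15 UMIs in 12 and 5 cells. Every one of those positive cells also had a UMI of a Cd3 gene, a part of the T cell receptor complex, as did 77 of the 84 F592A and 65 of the 68 WT cells of this group. Stromal cells held 6.81 CPM in F592A (interval 6.36 to 7.29) and 5.98 in WT (interval 5.60 to 6.37), had a UMI in 8.85% and 8.16% of cells, and gave 95.9% and 96.4% of all Tnfsf11 UMIs. In macrophages, the background for this gene, 0.122% of F592A and 0.120% of WT cells had a UMI at a median of 13469 and 10425.5 UMIs per cell. Mural, endothelial, lymphatic, dendritic cells and neutrophils had 0 or 1 Tnfsf11 UMI per library.

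Among stromal clusters, the one led by Saa3, C3 and Cxcl14 was the highest for Tnfsf11, at 16.8 CPM in F592A (312 UMIs) and 16.7 in WT (294 UMIs). The cluster led by Tnn, Inhba and Scx followed with 8.66 and 7.94 CPM. The clusters led by Wfdc18 and Rbp4 (2.89 and 2.82 CPM) and by Slurp1 and Efemp1 (1.11 and 1.56 CPM) were the lowest. The second of these was the highest cluster for Csf1, so the 2 stromal ligands did not share one order. Stromal cells with a UMI of Cxcl14 held 11.6 CPM of Tnfsf11 in F592A and 10.9 in WT, against 4.68 and 4.52 CPM without it, and cells with a UMI of Col2a1, the cartilage collagen, held 2.07 and 2.44 CPM against 8.57 and 7.18 CPM without it. Both markers were picked after the values had been seen, and other markers of their lists went the other way. Among adventitial markers, cells with a Dpp4 UMI held 2.53 CPM in F592A and 2.73 in WT, against 7.39 and 6.49 CPM without one, and Tnfsf11 was also lower in both libraries in cells with a Pi16 or a Cd55 UMI. Among cartilage markers, cells with an Acan UMI held 7.23 and 6.03 CPM, against 5.89 and 5.84 CPM without one, and Tnfsf11 was also higher in both libraries in cells with a Sox9 UMI.

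**Figure D3:**
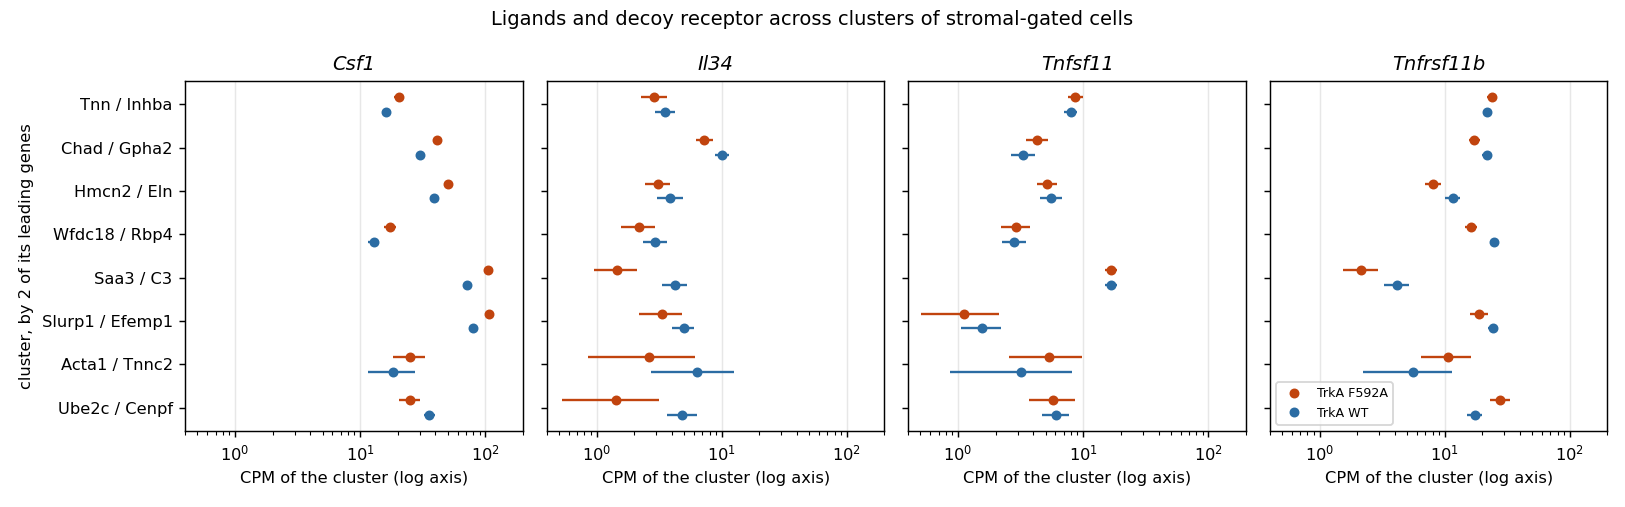
Levels (CPM, log axis) of Csf1, Il34, Tnfsf11 and Tnfrsf11b in 8 clusters in which most cells were gated as stromal, named by 2 of their leading genes, TrkA F592A above TrkA WT, with 95% counting intervals. The cluster led by Acta1 and Tnnc2 has a median of only 3479 UMIs per cell, and its leading genes include muscle and keratin genes and no stromal marker. Tnfsf11 is highest and Tnfrsf11b lowest in the cluster led by Saa3 and C3.

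The RANK gene Tnfrsf11a was found in macrophages and in vessel lining cells. Macrophages held 49.9 CPM in F592A (interval 47.0 to 52.9) and 48.0 in WT (interval 45.4 to 50.6), with a UMI in 44.6% and 37.3% of cells and, after thinning, in 9.56% and 8.57%. Lymphatic endothelial cells held 30.6 CPM in F592A (30 UMIs, interval 20.7 to 43.7) and 27.0 in WT (26 UMIs, interval 17.6 to 39.6), and endothelial cells held 20.2 (interval 17.5 to 23.3) and 20.6 (interval 17.4 to 24.2). Those 2 neighbours overlapped in their intervals in both libraries. Stromal cells held 0.381 CPM in F592A and 0.398 in WT, and T or NK cells held 0 UMIs in both.

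Endothelial cells had been set as the background for Tnfrsf11a as well, but their level was 40.6% of the macrophage level in F592A and 42.9% in WT. The macrophage markers reached between 0.381% and 0.762% there in F592A and between 0.395% and 0.991% in WT. Stromal cells therefore serve as the lower background, with a UMI in 0.806% of F592A and 0.868% of WT cells, against 20.5% and 17.5% of endothelial cells. Macrophage clusters lay closer together, at 52.5 CPM in F592A and 51.1 in WT in the Cbr2 cluster, 48.7 and 46.2 in the Retnla cluster and 37.9 and 39.4 in the Mmp12 cluster. The exception was the Chil3 and Ly6c2 cluster, at 6.26 CPM in F592A (2 UMIs, interval 0.758 to 22.6) and 3.92 CPM in WT (1 UMI, interval 0.0992 to 21.8). In thinned macrophages, Tnfrsf11a was found in 9.08% of F592A and 8.42% of WT cells with a Csf1r UMI, and in 10.6% and 8.79% of cells without one.

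The osteoprotegerin gene Tnfrsf11b was stromal, with 98.6% of its UMIs in stromal cells in F592A and 98.8% in WT. The stromal level was 14.7 CPM in F592A (interval 14.0 to 15.4) and 19.1 CPM in WT (interval 18.4 to 19.8), and 17.5% and 21.9% of cells had a UMI. In macrophages, its background, 0.306% of F592A and 0.598% of WT cells had one. The clusters led by Tnn and Inhba (23.7 and 21.8 CPM), Wfdc18 and Rbp4 (16.2 and 24.9), Slurp1 and Efemp1 (18.8 and 24.5) and Chad and Gpha2 (17.2 and 21.6) held most of it. The cluster led by Saa3 and C3 held the least, 2.15 CPM in F592A (40 UMIs, interval 1.54 to 2.93) and 4.16 in WT (73 UMIs, interval 3.26 to 5.23).

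RANKL and its decoy receptor were therefore set against each other within each stromal cluster. Over all stromal cells there were 0.464 Tnfsf11 UMIs per Tnfrsf11b UMI in F592A (interval 0.427 to 0.503) and 0.313 in WT (interval 0.291 to 0.337). In the cluster led by Saa3 and C3 the ratio was 7.80 in F592A (interval 5.60 to 11.1) and 4.03 in WT (interval 3.11 to 5.28), the one stromal cluster with a ratio above 1 in either library. The lowest ratio was that of the cluster led by Slurp1 and Efemp1, 0.0588 in F592A (interval 0.0264 to 0.115) and 0.0637 in WT (interval 0.0428 to 0.0916). The F592A interval lay above the WT interval in the clusters led by Saa3 and C3 and by Chad and Gpha2, where the ratio was 0.249 in F592A (interval 0.198 to 0.312) and 0.154 in WT (interval 0.120 to 0.196). The intervals of the other clusters met or overlapped, and in the cluster led by Ube2c and Cenpf the F592A ratio was the lower one, 0.207 against 0.351 in WT.

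**Figure D4:**
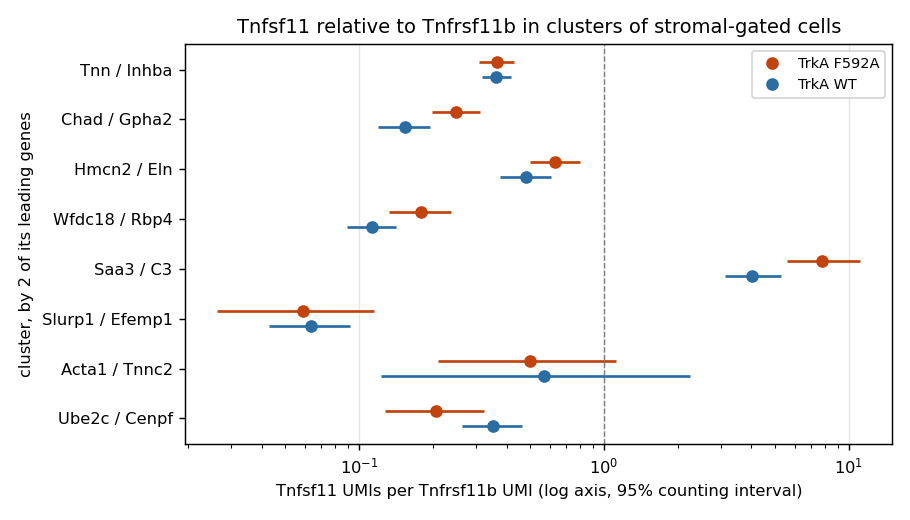
Tnfsf11 UMIs per Tnfrsf11b UMI (log axis) in the same 8 clusters, TrkA F592A above TrkA WT, with 95% counting intervals and a dashed line at a ratio of 1. The cluster led by Saa3 and C3 lies above the line in both libraries, at 7.80 in F592A and 4.03 in WT.

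Between the libraries the 6 genes differed by less than 1.5-fold in every cell type where they had at least 100 UMIs. In stromal cells 0 of 6 measured members passed that fold, where 8.25% of 13996 measured genes did, 3.42% higher and 4.83% lower in F592A. In macrophages 0 of 3 passed it (Csf1, Csf1r and Tnfrsf11a), where 5.99% of 10125 genes did, 1.94% higher and 4.05% lower. The shares of higher genes among those past the fold, 41.4% in stromal cells and 32.3% in macrophages, depend on scaling and were 50.6% and 50.1% with TMM factors and 54.0% and 51.8% with median-of-ratios factors. The background was 12.7% in mural cells, where 2 members were measured, 11.5% in endothelial cells, where 2 were measured, and 32% in neutrophils, where Csf1 alone was measured, and no member passed the fold in these types. The median log2 ratio over all measured genes was -0.08 in stromal cells and -0.08 in macrophages. Single clusters also gave members past the fold, among them Csf1r (-0.61) in the Chad and Gpha2 cluster, where 2.66% of genes were lower by that fold, and Tnfrsf11b (-0.62) in the Wfdc18 and Rbp4 cluster, where 2.74% were. That Csf1r ratio came from low levels, 2.82 CPM in F592A (65 UMIs) and 4.30 CPM in WT (101 UMIs). The shares of cells with a Csf1r UMI there were 5.56% and 6.27%. In the mural cluster led by Rgs5 and Myh11, Csf1r was 6.44 CPM in F592A (52 UMIs) and 10.3 CPM in WT (75 UMIs), a log2 ratio of -0.68 (interval -1.22 to -0.15), where 9.59% of genes were lower by that fold. The summed macrophage markers were 92.2 CPM in F592A and 425 CPM in WT mural cells, and 93.9 and 193 CPM in stromal cells. Their part in these Csf1r values was not tested.

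Csf1 and Csf1r were the members with the clearest higher levels in F592A relative to their counting error. Stromal Csf1 had a log2 ratio of 0.42 (interval 0.36 to 0.47) and endothelial Csf1 one of 0.47 (interval 0.28 to 0.66). The stromal difference was present in 6 clusters, with log2 ratios between 0.33 in the Tnn and Inhba cluster and 0.55 in the Saa3 and C3 cluster and no interval reaching 0. In the shallow cluster led by Acta1 and Tnnc2, where 518 cells were gated as stromal but muscle and keratin genes led, the interval included 0, and in the Ube2c and Cenpf cluster Csf1 was lower in F592A (24.9 CPM against 35.8 CPM in WT, log2 ratio -0.52). Csf1 was also lower in F592A in neutrophils (log2 ratio -0.32, interval -0.53 to -0.10) and macrophages (log2 ratio -0.46, interval -0.79 to -0.13), and in mural cells its interval included 0. These lower values depended on how the cells were grouped. The neutrophil cluster gave -0.12 (interval -0.29 to 0.06), and the 2 largest macrophage clusters, those led by Cbr2 and by Retnla, gave -0.14 (interval -0.59 to 0.30) and -0.20 (interval -0.89 to 0.48). In the macrophage cluster led by Mmp12 it was 6.45 CPM in F592A (16 UMIs) and 19.3 CPM in WT (89 UMIs), a log2 ratio of -1.58 (interval -2.45 to -0.80), where 4.04% of 6058 measured genes were at least 1.5-fold lower. There 5.70% of F592A cells (interval 2.64 to 10.5) and 7.91% of WT cells (interval 5.32 to 11.2) had a Csf1 UMI. These shares overlapped in their intervals. Csf1r in macrophages had a log2 ratio of 0.33 (interval 0.29 to 0.36), and 0.28 in the Cbr2, 0.39 in the Retnla and 0.15 in the Mmp12 cluster. The summed level of the 8 macrophage markers in macrophages was 22513 CPM in F592A and 29012 CPM in WT. Lyz2 was the largest part of this sum, at 12170 CPM in F592A and 17269 CPM in WT. Single markers went both ways. Mrc1 (966 CPM in F592A and 782 CPM in WT) and Adgre1 (326 and 313 CPM) were higher in F592A. C1qa, C1qb, C1qc, Cd68, Fcgr1 and Lyz2 were lower. The part of these marker levels in the Csf1r difference was not tested.

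Il34 and Tnfrsf11b were lower in F592A. Il34 had a log2 ratio of -0.58 (interval -0.76 to -0.40) in mural cells and -0.55 (interval -0.72 to -0.38) in stromal cells. Tnfrsf11b had one of -0.38 (interval -0.46 to -0.29) in stromal cells. Among clusters with at least 100 UMIs of the gene, both were lowest relative to WT in the one led by Saa3 and C3, where Il34 was 1.45 CPM in F592A and 4.21 in WT (log2 ratio -1.54, interval -2.23 to -0.88) and Tnfrsf11b had a log2 ratio of -0.95 (interval -1.54 to -0.37). In that cluster 4.13% of 10352 measured genes were at least 1.5-fold lower. In the Chad and Gpha2 cluster Il34 had a log2 ratio of -0.47 (interval -0.76 to -0.18). In the Ube2c and Cenpf cluster it had one of -1.75 (interval -3.25 to -0.53), on only 6 F592A and 54 WT UMIs. Il34 was also below WT in the clusters led by Tnn (-0.29), Hmcn2 (-0.32), Wfdc18 (-0.43) and Slurp1 (-0.58), but with intervals that included 0. The same held in the Acta1 and Tnnc2 cluster (-1.27), on 5 and 8 UMIs. Tnfrsf11b was not lower in every stromal cluster, with 0.12 in the Tnn and Inhba cluster (interval -0.04 to 0.28) and 0.68 in the Ube2c and Cenpf cluster (27.8 CPM in F592A and 17.3 in WT, interval 0.34 to 1.02), where 3.59% of measured genes were higher by 1.5-fold. The clusters also made up different parts of the libraries, with 305 F592A and 821 WT cells in the Slurp1 and Efemp1 cluster and 90 and 298 in the Ube2c and Cenpf cluster. With every stromal cluster weighted equally, an alternative chosen after seeing the data, the Tnfrsf11b log2 ratio was -0.08. That weighting counts the Ube2c and Cenpf cluster and the shallow Acta1 and Tnnc2 cluster as much as the larger ones. In the Acta1 and Tnnc2 cluster Tnfrsf11b was 10.6 CPM in F592A (20 UMIs) and 5.57 CPM in WT (7 UMIs), with a ratio interval that included 0. The part of cluster proportions in the stromal Tnfrsf11b difference was not tested. The Tnfsf11 log2 ratio was 0.19 in stromal cells (interval 0.05 to 0.32), but 0.00 in the Saa3 and C3 cluster and -0.0035 over stromal cells once each cell was thinned to 2000 UMIs (interval -0.50 to 0.49). Tnfrsf11a had 0.06 in macrophages (interval -0.06 to 0.17) and -0.02 in endothelial cells (interval -0.34 to 0.29).

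**Figure D5:**
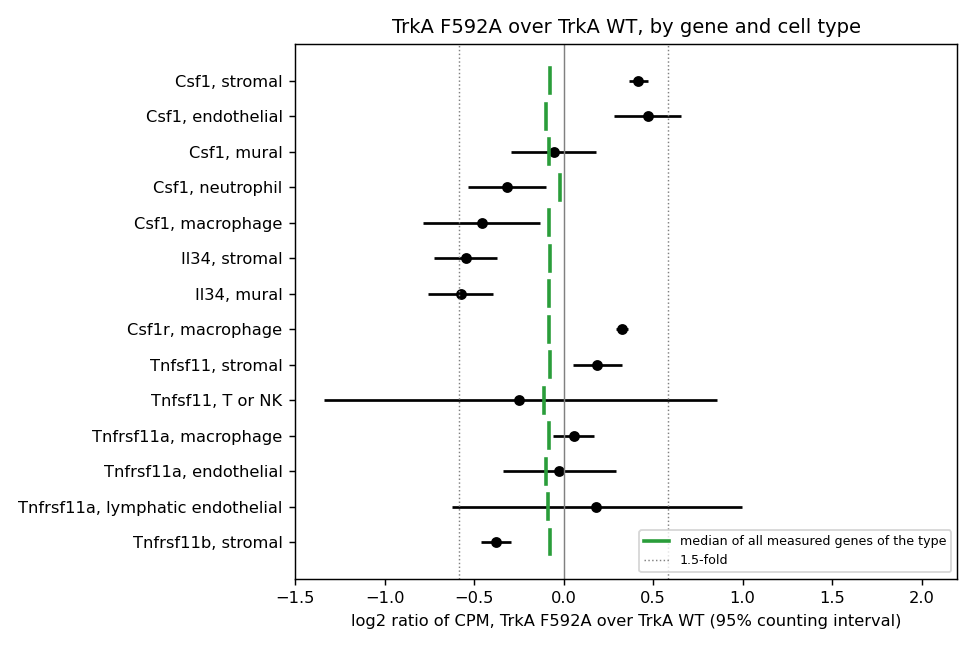
Log2 ratio of CPM, TrkA F592A over TrkA WT, for each gene in the cell types that carry it (points, with 95% counting intervals), green dashes at each type's median over its measured genes and 1.5-fold (dotted). Csf1 lies right of 0 in stromal and endothelial cells and left of it in neutrophils and macrophages, and no point lies beyond 1.5-fold.

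Other genes around the axis were taken from lists. Of the 13 genes whose products induce RANKL or relay that signal, all were measured in stromal cells, 1 was at least 1.5-fold higher and 3 lower in F592A, with a list median of 0.11 against -0.08 over all genes. The higher one was Il6, the cytokine interleukin 6, at 73.5 CPM in F592A and 20.8 CPM in WT (log2 ratio 1.82, interval 1.77 to 1.88). The lower ones were the macrophage cytokines Il1b, Tnf and Osm, named here after their values were seen, with 10.8, 3.68 and 0.373 CPM in F592A stromal cells and 21.7, 9.26 and 0.998 CPM in WT stromal cells. In macrophages themselves Il1b stood at 2911 and 3171 CPM and Tnf at 706 and 857 CPM, and the part of macrophage RNA in the stromal values was not tested. The interleukin 6 co-receptor Il6st was 129 CPM in F592A and 106 CPM in WT stromal cells, and the parathyroid hormone receptor Pth1r 38.5 and 35.7 CPM.

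Osteoclast genes were read in macrophages, where 16 of the 21 on the list were measured, 2 were at least 1.5-fold higher, 2 lower and the list median was 0.04 against -0.08 over all genes. Calcr, the calcitonin receptor, and Oscar, 2 defining osteoclast genes, had 0 UMIs in the macrophages of both libraries. Other osteoclast markers were found there. Acp5 was 107 CPM in F592A (2419 UMIs) and 153 CPM in WT (4275 UMIs), beside 36.6 and 34.3 CPM in stromal cells. Ocstamp had 54 UMIs in F592A and 56 in WT macrophages. Ctsk, the collagen-degrading protease cathepsin K, was 124 CPM in F592A and 254 CPM in WT (log2 ratio -1.03, interval -1.10 to -0.97), beside 874 and 912 CPM in stromal cells. Atp6v0d2, a proton pump subunit, was 38.0 and 67.3 CPM (log2 ratio -0.83). Dcstamp, a fusion protein, was 11.1 and 7.29 CPM (log2 ratio 0.61) and Mmp9 was 3.35 and 2.15 CPM. The most abundant listed genes were Tyrobp (1661 and 1736 CPM), an adaptor of activating receptors, and its partner Trem2 (605 and 884 CPM, log2 ratio -0.55). Atp6v0d2 was also a leading gene of the Mmp12 cluster, which held 158 F592A and 354 WT cells, beside 1635 and 2510 macrophages. The part of cluster proportions in the macrophage ratios of these osteoclast genes was not tested. Calcr, Oscar, Ocstamp, Atp6v0d2, Dcstamp and Mmp9 fell outside the naming rule. These genes and Acp5 were named after their values were seen.

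Of 14 genes of CSF1 receptor signalling and macrophage survival, all were measured in macrophages, 1 was higher and 0 were lower by 1.5-fold, with a list median of 0.02 against the same -0.08. The higher one was the transcription factor gene Maf, named after its value was seen, at 257 CPM in F592A and 161 CPM in WT (log2 ratio 0.68). Spi1, the factor PU.1 that drives Csf1r transcription, was 359 CPM in F592A and 407 CPM in WT. Of the 8 other colony-stimulating factors and receptors 5 were measured in macrophages and 1 was lower, Csf3, the granulocyte factor, at 18.3 CPM in F592A and 41.7 CPM in WT (log2 ratio -1.19). Csf2ra and Csf2rb, the receptor chains for the granulocyte-macrophage factor, were 123 and 138 CPM in F592A and 135 and 159 CPM in WT. Of the 7 further partners of the members 5 were measured in stromal cells and 0 passed the fold, among them Sdc1, a surface proteoglycan that binds interleukin 34, at 119 CPM in F592A and 121 CPM in WT, and Lgr4, a further receptor of RANKL, at 9.79 and 10.2 CPM.

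The genes most like each member were taken by Pearson's r of log2(CPM + 1) over 14 points, 7 cell types in 2 libraries, among 14934 genes. The points share libraries, depth and the gates, so r is a description. Il34 was closest to Pde1a (r = 0.990), Fam178b and Gm28523. Tnfsf11 was closest to Chst10 (r = 0.982), Kcnmb4 and Itgb8, Tnfrsf11a to Abca1 (r = 0.973), Ltc4s and Slco2b1, Tnfrsf11b to BC034090 (r = 0.975), Aqp5 and Scara5, and Csf1 to 4933408B17Rik (r = 0.943), Iqcn and Efcab5. Csf1r was closest to Adgre1 (r = 0.982), Cd68 and Lyz2, which were themselves used to gate macrophages.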

How the data were processed

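Single cells of 2 libraries were captured with the 10x Genomics system and sequenced on a NovaSeq instrument after digestion with collagenase and dispase, per the labels' protocols. The authors deposited whole UMI counts per gene and barcode, made with Cell Ranger 6.0.1 per the file headers, whereas Cell Ranger 2.1.1, Seurat and mm10 stand in the submitters' processing notes. Every deposited barcode had at least 500 UMIs. The cell filter asked for 500 genes and 1000 UMIs or more, with no more than 15% of UMIs from mitochondrial genes. Barcodes found in both libraries were left out, and Scrublet, run on each library, removed 202 doublets (2.36%) in F592A and 339 (2.95%) in WT.

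A marker's value was its log-normalised level (total 10000) over its 95th percentile, at most 1. A cell joined the type whose mean over markers was at least 0.2 and led the next by at least 0.1. Types with under 50 cells in a library took no part in the comparison of similar genes, and CPM values given for them rest on few UMIs. Clusters came from 2000 variable genes without the 6 members, 30 principal components, 15 neighbours and Leiden at resolution 0.8 (scanpy 1.11.5, leidenalg 0.10.2), which gave 18 clusters. UMIs were summed per type and library. A gene counted as measured from 100 UMIs upwards in the sum of the libraries, and a rule of size counted those at least 1.5-fold apart. Intervals came from scipy 1.17.1 and TMM factors from edgeR 4.0.16 in R 4.3.3. The steps were tested on simulated data, drawn as independent Poisson counts from the stromal means. The intervals assume the same model, so the simulation could not check them against UMIs that clump in single cells. For 0 UMIs the floor is 3 counts. UMIs correct for copies made by PCR, and intervals and floors cover counting error only.

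The members and lists were chosen with earlier results of these data known. Named genes are the members, the 3 genes most like each, and at most 5 genes of each list by mean level, with exceptions stated, and some listed genes are not reported here. Alternatives were other scaling factors, stricter filters and gates, doublets kept, cluster-based types, thinning to 2000 UMIs, means over cells, and, chosen after seeing the data, shared barcodes kept and clusters weighted equally. Gene positions came from GENCODE M21.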

Additional observations from a re-analysis of the deposited data

Results flagged for a closer look

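Csf1 moved in opposite directions between cell types, with a log2 ratio of F592A over WT of 0.42 in stromal and 0.47 in endothelial cells against -0.46 in macrophages and -0.32 in neutrophils. The intervals of these ratios did not include 0, but the neutrophil cluster gave -0.12 (interval -0.29 to 0.06) and the Cbr2 and Retnla macrophage clusters -0.14 and -0.20 with intervals that included 0. The difference between the types was not tested. Csf1r did so too, at 0.33 in macrophages, -0.21 in stromal cells (507 F592A and 751 WT UMIs) and -0.93 in mural cells (26 and 41 UMIs). This difference was not tested either. The share of mural cells with a Csf1r UMI was 4.46% in F592A and 4.25% in WT. The summed macrophage markers in mural cells were 92.2 CPM in F592A and 425 CPM in WT, and in stromal cells 93.9 and 193 CPM, and their part in these Csf1r values was not tested.

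Signal also appeared in cells outside the comparisons. Csf1 reached 114 CPM in F592A cells gated as Schwann cells, on 5 UMIs that all lay in 1 of 3 cells (interval 37.0 to 266), beside 20.7 CPM on 2 UMIs in 10 WT cells. Cells placed in no type held 164 CPM of Csf1r in F592A and 143 CPM in WT, and 29.8 CPM of Tnfrsf11a in F592A and 23.5 CPM in WT, over 347 F592A and 362 WT cells. Csf1 went the other way in these cells, at 65.2 CPM in F592A (254 UMIs) and 107 CPM in WT (300 UMIs). Its log2 ratio there was -0.71 (interval -0.96 to -0.47).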

How the results depend on the processing

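No paired analysis was possible because each genotype has 1 library and the labels give no replicate numbers, so no library could be left out either. Stromal Csf1 (log2 ratio 0.42 as reported) was 0.47 with TMM factors, 0.49 with median-of-ratios factors, 0.54 after thinning each cell to 2000 UMIs and 0.36 with clusters weighted equally. Stromal Il34 (-0.55) was -0.92 after thinning and -0.79 with equal weights, and stromal Tnfrsf11b (-0.38) was -0.0753 with equal weights, which were chosen after seeing the data. Equal weights count the Ube2c and Cenpf cluster and the shallow Acta1 and Tnnc2 cluster as much as the larger ones. Stromal Tnfsf11 (0.19) was -0.0035 after thinning, with an interval that included 0. Macrophage Csf1r (0.33) was 0.40 with TMM factors, 0.41 with median-of-ratios factors and 0.29 as a mean over cells. Macrophage Tnfrsf11a (0.06) was 0.18 after thinning and ranged from -0.03 to 0.18 over 10 alternatives. The cause of these moves was not tested. The count of genes at least 1.5-fold apart was 1154 in stromal cells and 606 in macrophages and, with no minimum beyond 1 UMI in each library, 4397 and 3524. It was 1133 and 533 with TMM factors and 1123 and 535 with median-of-ratios factors. With shared barcodes kept, stromal Csf1 stayed at 0.42. Over their 10 alternatives Csf1, Il34, Tnfrsf11b and Csf1r kept their direction. Thinning leaves few UMIs of the rarer members, and no member reached 100 UMIs in T or NK, lymphatic or dendritic cells.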
